A study of Mus musculus with 6 samples.

Results

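The genes described here handle fatty acids in splenic B cells: Cd36, Scarb1, Lpl and Fabp5 for uptake, Acsf2 and Acsl1 for activation, Cpt1a for entry into mitochondria, and Fasn, Scd1 and Scd2 for synthesis and desaturation. They were taken by gene symbol from a list of 10, and 9 of the 10 were measured, out of 19938 genes in all. Acsl1 is not analysed here. Cd36 and Acsf2 were put on the list because they were lower in p80HT B cells, so those 2 were chosen by their measured difference between the groups, and the comparison of p80HT with WT is given for the listed genes as a description. Where a listed gene is said to be past a threshold, this restates the values by which it was listed or that were in view then, and supports nothing. The other genes were listed by function, with results of that comparison already known.

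RNA came from splenic B cells of 3 p80HT transgenic mice and 3 wild type (WT) littermates, all 1 year old. Both groups share the mixed strain C57BL/6J x SJL/J. The p80HT mice were chosen for M-protein, a monoclonal immunoglobulin, in the serum. They carry the human coding sequence of p80HT, a truncated NF-κB2 protein found in lymphoma, under an H-2Kb promoter and an immunoglobulin μ enhancer that are active in T and B lymphocytes, so the transgene is not limited to B cells. Cells were selected with an antibody to B220, a form of CD45 on most mouse B cells, and magnetic beads, and each mouse was read on 1 Affymetrix Mouse Gene ST array. The mouse Nfkb2 gene was at 10.86 ± 0.07 in WT and 10.69 ± 0.16 in p80HT (log2 signal, SD, n = 3). Whether its probes also read the human transgene was not tested.

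A cell takes up fatty acids through surface receptors such as CD36, or after lipoprotein lipase has freed them from triglyceride in lipoproteins, and carries them inside on fatty acid binding proteins. An acyl-CoA synthetase then joins each one to coenzyme A, which commits it to membrane lipid, to storage or, through carnitine palmitoyltransferase, to oxidation in mitochondria. Cells also make fatty acids with fatty acid synthase and put in double bonds with stearoyl-CoA desaturases. CD36 is known from fat, muscle, endothelium, platelets and macrophages, and among mouse B cells from those of the marginal zone.

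The array of p80HT replicate 3 stands apart from the others. Over all probesets its Pearson correlation with the other 5 arrays was 0.934 to 0.943, while these correlated with each other at 0.983 or above. The mean log2 level of 12 genes of salivary and lacrimal glands was 12.10 on it and 6.43 to 6.78 on the others, and that of 10 fibroblast and stroma genes was 9.83 on it and 7.19 to 7.53 on the others. The mean of 10 B cell genes, Ms4a1 and Cd79a among them, was 11.15 on this array, 12.18 and 12.27 on the other 2 p80HT arrays and 12.33 to 12.48 on the WT arrays. The difference of each fatty acid handling gene, and of the other lipid genes named beside a test, is therefore also given without this array. A lower level in such cells can mean fewer cells of a type or less RNA per cell, which cannot be told apart in bulk RNA.

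A gene was called higher or lower where it passed the threshold of the study's methods, a change of 1.5-fold or more together with an unadjusted p under 0.01, here from limma. With that rule 243 of 19938 genes (1.22%) were higher and 193 (0.968%) lower in p80HT. At a Benjamini-Hochberg adjusted p under 0.05 in limma, 10 were higher (0.0502%) and 1 was lower (0.00502%), which is the listed gene Cd36. Without p80HT replicate 3 the threshold called 401 higher (2.01%) and 290 lower (1.45%), and with each array centred on its median it called 183 higher and 342 lower. Of the 9 fatty acid handling genes, 3 were past the threshold and all 3 were lower: Cd36, Acsf2 and Cpt1a. The 3 WT and 3 p80HT values did not overlap for 7 of the 9, 4 lower and 3 higher. Over all genes 20.8% do not overlap, 11.9% lower and 8.86% higher. Since this comparison was in view when the genes were listed, nothing is read from these counts. The median log2 difference of the 9 genes was 0.16, against -0.02 for all genes, and -0.07 without p80HT replicate 3, against 0.04 for all genes.

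**Figure D1:**
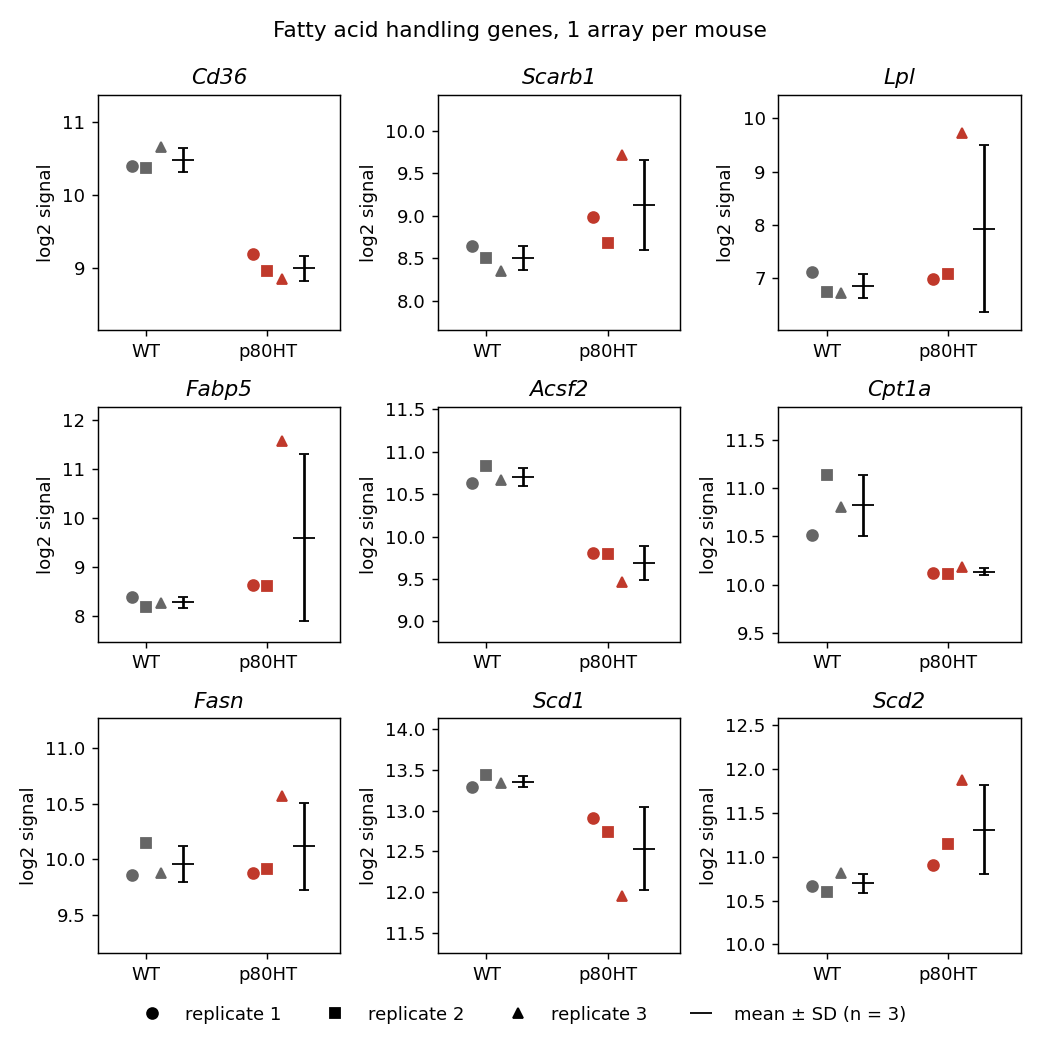
Log2 signal (vertical axis, own range in each panel) of the 9 fatty acid handling genes, 1 point per mouse (WT grey, p80HT red, symbol by replicate number) with the group mean and SD (n = 3). Cd36 and Acsf2 lie lower on all 3 p80HT arrays, while Fabp5 and Lpl are high on p80HT replicate 3, at 11.57 and 9.73.

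Cd36, the receptor for long-chain fatty acids and oxidised lipoproteins, was at 10.39, 10.38 and 10.66 (log2 signal) on the WT arrays and at 9.19, 8.96 and 8.85 on the p80HT arrays. The lowest WT value lies above the highest p80HT value, and the 3 values of each group lie close together, over 0.29 in WT and 0.33 in p80HT. The WT mean was 10.48 with an SD of 0.16 and the p80HT mean lay at a log2 difference of -1.48 from it, or 2.79-fold, with an SD of 0.17 (n = 3 each) and a standard error of the difference of 0.15. Without p80HT replicate 3 the difference was -1.41, and over all 6 ways of leaving out 1 array it ran from -1.57 to -1.39. The gap was nearly as wide with p80HT replicates 1 and 2 alone.

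Acsf2, a mitochondrial acyl-CoA synthetase that activates medium-chain fatty acids, was at 10.63, 10.83 and 10.66 on the WT arrays and at 9.80, 9.80 and 9.46 on the p80HT arrays. The groups do not overlap, and p80HT replicate 3 is the lowest of the 6. The log2 difference was -1.02 with a standard error of 0.15, or 2.03-fold, and -0.90 without p80HT replicate 3. The gene has a further probeset, on which it was at 10.58, 10.81 and 10.61 in WT and at 9.72, 9.55 and 9.46 in p80HT, a log2 difference of -1.09. Both probesets thus gave the same order of the groups. Whether each of them reads only Acsf2 was not tested.

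The sequences before the starts of Cd36 and Acsf2 are shown because these genes were listed together for their lower level in cells that carry an NF-κB2 mutant. They are the 250 bases upstream of 1 annotated start per gene from RefSeq (GRCm38.p6), 5′ to 3′ on the strand of the gene. Which start these cells use was not tested. Cd36 is read from chr5:17835897-17836146 on the minus strand and Acsf2 from chr11:94601787-94602036 on the minus strand. Capitals mark AGGTCA on either strand, the half-site of PPAR, RXR and related nuclear receptors.
Cd36: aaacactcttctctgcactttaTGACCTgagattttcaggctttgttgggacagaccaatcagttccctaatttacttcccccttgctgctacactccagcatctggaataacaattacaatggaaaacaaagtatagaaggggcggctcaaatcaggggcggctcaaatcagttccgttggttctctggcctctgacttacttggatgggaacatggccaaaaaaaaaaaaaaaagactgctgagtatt
Acsf2: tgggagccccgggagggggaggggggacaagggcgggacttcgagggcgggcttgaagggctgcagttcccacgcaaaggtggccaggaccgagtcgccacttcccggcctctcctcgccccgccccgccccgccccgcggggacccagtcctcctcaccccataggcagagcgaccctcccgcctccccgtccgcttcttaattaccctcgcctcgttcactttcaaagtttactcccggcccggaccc
AGGTCA was found 1 time in the Cd36 window and 0 times in the Acsf2 window, and 14% of 32851 windows of this length hold it. The NF-κB consensus, searched on both strands, matched neither window and is in 7.25% of all windows. The Acsf2 window is 70% G and C and the Cd36 window 43.2%. Such matches are letters in a window, and no match says only that these letters are not there.

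Of the other uptake genes none was past the threshold. Scarb1, the receptor for high-density lipoprotein and a relative of CD36, was at 8.64, 8.51 and 8.36 in WT and at 8.99, 8.68 and 9.71 in p80HT. Every p80HT value is above every WT value, though p80HT replicate 2 only just, and the log2 difference of 0.63 (standard error 0.26) was 0.33 without p80HT replicate 3. So Cd36 and Scarb1 differed in opposite directions on each p80HT array.

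Lpl, the lipoprotein lipase, was at 7.12, 6.74 and 6.73 in WT and at 6.98, 7.07 and 9.73 in p80HT. Its 2 lower p80HT values lie within the WT range, and the log2 difference of 1.07 (standard error 0.69) was 0.17 without p80HT replicate 3. Fabp5, a carrier of fatty acids in the cytosol, was at 8.40, 8.18 and 8.28 in WT and at 8.64, 8.61 and 11.57 in p80HT. The first 2 p80HT values lie a little above the highest WT value and p80HT replicate 3 far above it, and the log2 difference of 1.32 (standard error 0.74) was 0.34 without p80HT replicate 3. The other probeset of Fabp5 was at 7.73, 7.61 and 7.70 in WT and at 7.87, 7.74 and 11.12 in p80HT, with the same array far above the rest. Lpl and Fabp5 are the 2 listed genes that exceed their next highest array by over 1 log2 unit on p80HT replicate 3, as do 4.9% of all genes. The gland, stroma, macrophage and T cell lists were high on that array as well, and their part in these values was not tested.

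Cpt1a, the carnitine palmitoyltransferase that lets long-chain fatty acids into mitochondria, was at 10.52, 11.14 and 10.80 in WT and at 10.12, 10.11 and 10.18 in p80HT. The groups do not overlap, and the p80HT values lie within 0.07 of each other while the WT values spread over 0.62. The log2 difference was -0.68 with a standard error of 0.17, or 1.61-fold, and -0.71 without p80HT replicate 3. It was no longer past the threshold without WT replicate 2 (-0.52) or 3 (-0.69), or without p80HT replicate 1 (-0.68) or 2 (-0.67).

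Of the genes for synthesis, Fasn, the fatty acid synthase, was at 9.86, 10.15 and 9.88 in WT and at 9.88, 9.91 and 10.57 in p80HT. The groups overlap, and the log2 difference of 0.16 (standard error 0.21) was -0.07 without p80HT replicate 3. The desaturases Scd1 and Scd2, which put the first double bond into saturated fatty acids, went opposite ways. Scd1 was at 13.29, 13.43 and 13.34 in WT and at 12.91, 12.73 and 11.95 in p80HT, a log2 difference of -0.82 (standard error 0.25) and of -0.53 without p80HT replicate 3. Scd2 was at 10.67, 10.60 and 10.82 in WT and at 10.91, 11.14 and 11.87 in p80HT, a log2 difference of 0.61 (standard error 0.25) and of 0.33 without p80HT replicate 3. Neither pair of groups overlaps, and in both genes p80HT replicate 3 lies farthest from WT. The Scd2 difference exceeds the Scd1 difference by 1.43 on the log2 scale, and by 0.86 without p80HT replicate 3. The desaturases are alike in sequence, and how far their probes tell them apart was not tested.

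**Figure D2:**
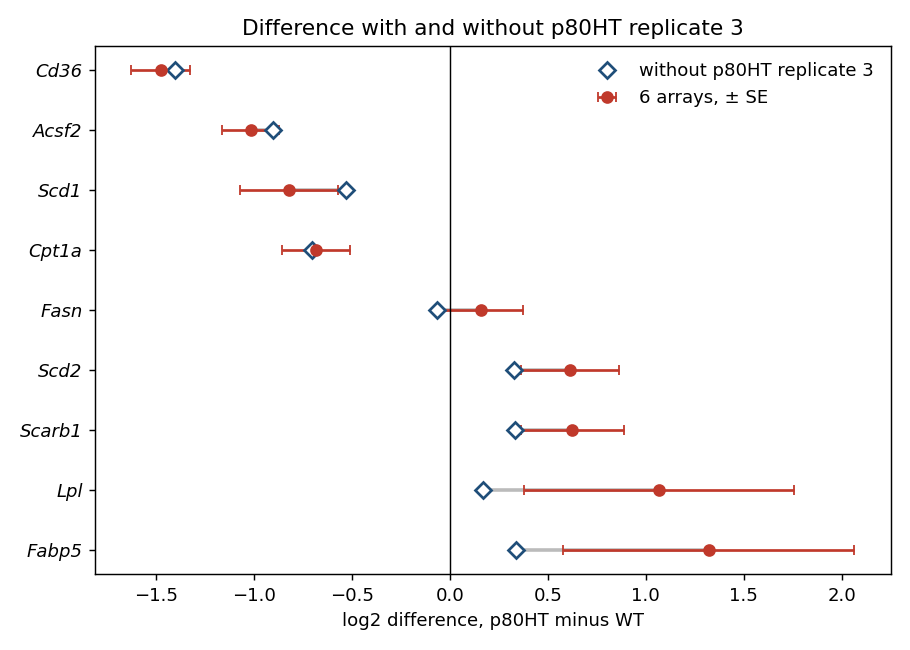
Log2 difference of p80HT minus WT (horizontal axis) for each fatty acid handling gene, with all 6 arrays (filled points, bars are the standard error in limma) and without p80HT replicate 3 (open diamonds). Cd36 (-1.48 and -1.41), Acsf2 (-1.02 and -0.90) and Cpt1a (-0.68 and -0.71) stay near their value, while Fabp5 (1.32 and 0.34) and Lpl (1.07 and 0.17) do not, and Fasn (0.16 and -0.07) changes sign. Scarb1 (0.63 and 0.33), Scd2 (0.61 and 0.33) and Scd1 (-0.82 and -0.53) keep their sign with a smaller difference.

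Across the arrays, 5 of the 9 genes were highest on p80HT replicate 3 (Scarb1, Lpl, Fabp5, Fasn and Scd2), 3 were lowest on it (Cd36, Acsf2 and Scd1) and Cpt1a was neither. Among all genes 27.8% were highest and 48.1% lowest on that array. Where p80HT replicates 1 and 2 alone are set against WT, Cd36, Acsf2 and Cpt1a were past the threshold and the other 6 were not, 3.47% of all genes being past it in that fit.

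Markers of the cell types in which CD36 is known were read on the same arrays. The mean log2 level of 14 macrophage genes was 8.75 to 8.89 in WT. It was higher on all p80HT arrays, at 9.22, 9.20 and 10.53 on replicates 1, 2 and 3. Platelet and megakaryocyte genes (7 measured) were at 8.42 to 8.64 in WT and 8.37 to 8.65 in p80HT. Of these 7, 5 had a positive log2 difference, and the list median was 0.07. Ppbp was at 0.73 and Pf4 at 0.55, and without p80HT replicate 3 Ppbp passed the threshold as higher (0.79). Itgb3, an integrin chain of platelets singled out after its value was seen, went the other way. It fell by 1.11 on the log2 scale (limma adjusted p = 0.133), and by 1.18 without p80HT replicate 3. With all 6 arrays it was the only 1 of the 7 past the threshold, as lower, against 2.19% of all genes. It also passed as lower without p80HT replicate 3. The part of these cell types in the Cd36 values was not tested. Endothelial genes (10) were at 7.38 to 7.62 in WT and at 7.57, 7.63 and 8.75 on p80HT replicates 1, 2 and 3. Of these genes 9 had a positive log2 difference, with a list median of 0.58, and of 0.15 without p80HT replicate 3. Only Pecam1, which leukocytes carry too, fell, by 0.92 on the log2 scale (limma adjusted p = 0.172), and by 0.74 without p80HT replicate 3. Of the 10 it alone was past the threshold, as lower, in both fits. Adipocyte genes (10) were at 7.19 to 7.31 in WT and 7.37 to 7.51 in p80HT, with the fat cell hormone gene Adipoq at 5.61 to 5.65 and 5.76 to 6.31, below the 25th percentile of mean signal over all genes (6.81).

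Among B cell lists, 9 marginal zone genes had a mean level of 10.48 to 10.68 in WT. On p80HT replicates 1, 2 and 3 the mean was 10.79, 10.64 and 9.72. Their members went different ways: Cd9, a tetraspanin singled out after its value was seen, rose (log2 difference 1.14, limma adjusted p = 0.109, and 1.24 without p80HT replicate 3), while Cr2, the complement receptor CD21, was at -1.99 and, without p80HT replicate 3, at -1.13, where it passed the threshold. Cd1d1, which presents lipids and is high on marginal zone B cells, was at 9.18 to 9.35 in WT, at 10.56 and 10.18 on p80HT replicates 1 and 2, and at 8.15 on replicate 3. Its log2 difference was 0.35, and 1.09 without p80HT replicate 3, where it passed the threshold as higher. The part of these cells in the lower Cd36 level was not tested. The 10 B cell genes had a median log2 difference of -0.47, and of -0.17 without p80HT replicate 3, and their part in the values of the fatty acid handling genes was not tested. The 11 T cell genes were at 7.98 to 8.30 in WT and at 8.94, 8.76 and 10.24 on p80HT replicates 1, 2 and 3. Plasma cell genes (8) were at 10.38 to 10.64 in WT and 10.46 to 10.75 in p80HT. Of the remaining lists, dendritic cell genes (9) were at 8.13 to 8.23 in WT and at 8.39, 8.26 and 9.03 on p80HT replicates 1, 2 and 3. In the same order, red cell precursor genes (10) were at 7.33 to 7.46 in WT and at 8.35, 8.54 and 7.59 in p80HT. Neutrophil genes (10) were at 8.60 to 10.56 in WT and at 10.92, 10.33 and 7.74 in p80HT.

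**Figure D3:**
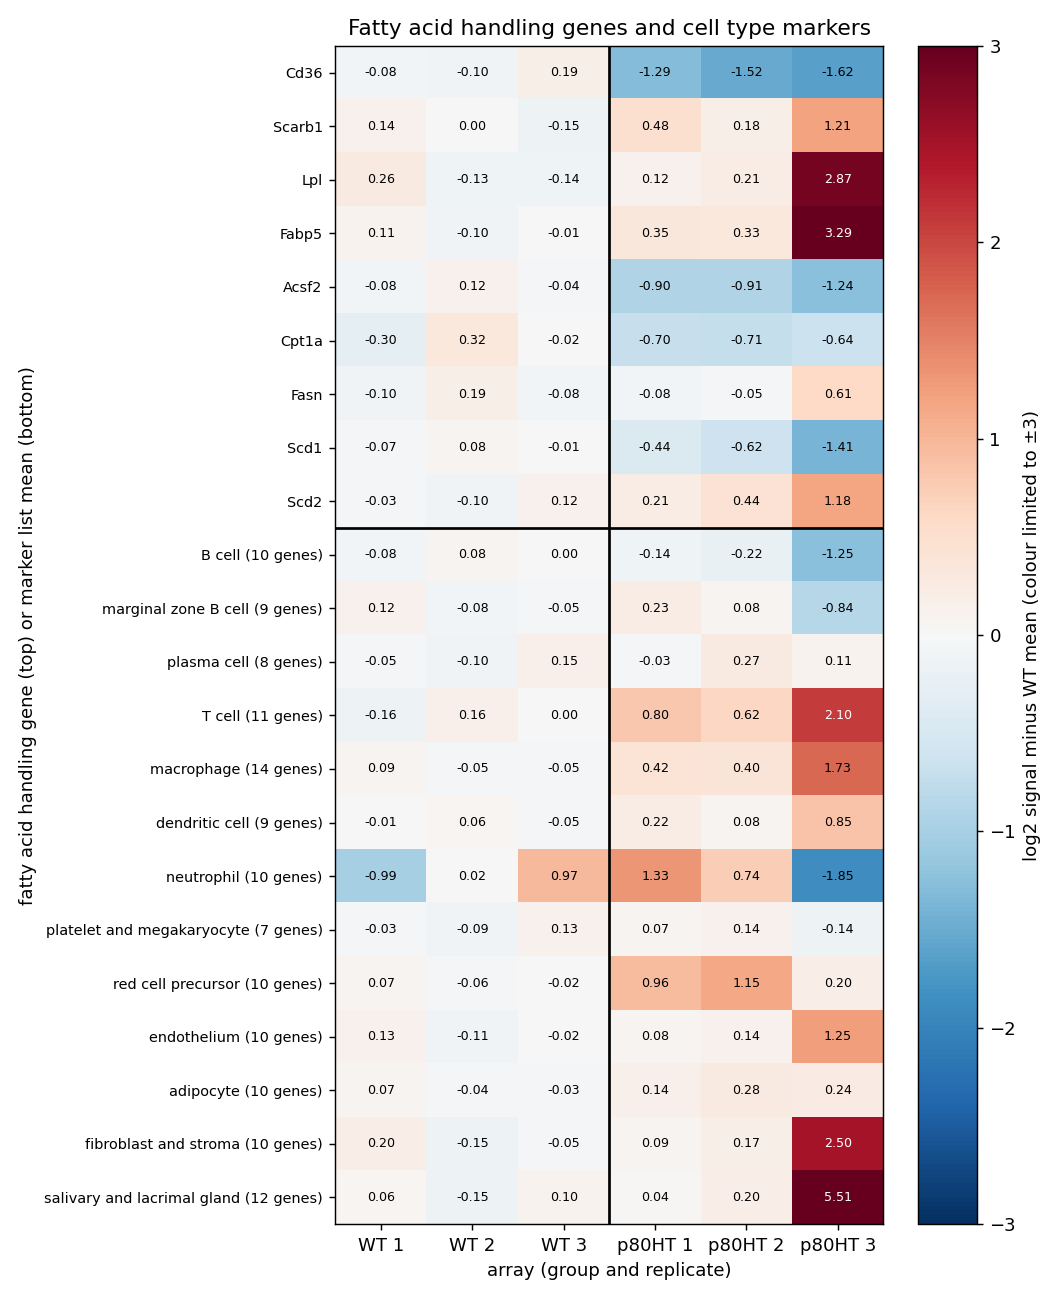
Log2 signal minus the WT mean on each array (columns) for the 9 fatty acid handling genes (upper rows) and for the mean of each cell type marker list (lower rows), with the value printed in each cell and the colour limited to ±3. Cd36 lies at -1.29, -1.52 and -1.62 on the p80HT arrays, where the B cell list is at -0.14, -0.22 and -1.25 and the gland list at 0.04, 0.20 and 5.51.

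Beyond the listed genes, 197 genes of fatty acid and lipid handling and scavenger receptors, taken from 7 lists by function, were read in the same fit. Of these 2 rose, 2 fell and 193 did not pass, or 2.03%, against 2.19% of all genes. That share is close to the background. Their median log2 difference was 0.08, against -0.02 over all genes. With all 6 arrays 0 passed the adjusted threshold in the main limma fit or in the methods' analysis of variance, while 20 had an unadjusted p under 0.05 in limma. Without p80HT replicate 3, 931 of 19938 genes had a limma adjusted p under 0.05. These included Hilpda and Insig1 (0.0012 each), Fabp4 (0.0108), Acss2 (0.0192), Abcd2 (0.0234) and Lrp1 (0.0245). After quantile normalization Insig1 passed as well (limma adjusted p = 0.0483). By the fold and unadjusted p threshold, 2 were higher and 3 lower without p80HT replicate 3, and with each array centred on its median 1 was higher and 4 lower.

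The 2 genes that fell were Hilpda and Insig1. Hilpda, which binds lipid droplets and inhibits the lipase that empties them, was at 9.34, 9.75 and 9.67 in WT and at 8.42, 8.27 and 7.58 in p80HT. Its groups do not overlap, and the log2 difference was -1.50 with a standard error of 0.24 (limma adjusted p = 0.121), and -1.24 without p80HT replicate 3. It was the only one of 36 measured genes of triglyceride storage and lipolysis to pass, and the list's median was 0.06. Insig1, which holds the sterol-sensing SREBP machinery in the endoplasmic reticulum, was at 11.61, 11.69 and 11.69 in WT and at 10.79, 10.66 and 10.76 in p80HT. Its groups are narrow and well apart, with a log2 difference of -0.93 and a standard error of 0.11 (limma adjusted p = 0.0681), and -0.94 without p80HT replicate 3. It was the only one to pass of 30 measured regulators of lipid genes, whose median was -0.06. Hilpda and Insig1 kept their calls without any 1 of the 6 arrays and under every other alternative run.

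The 2 genes that rose were Acss2 and Abcd2. Acss2, which makes acetyl-CoA from acetate, was at 7.75, 7.73 and 7.73 in WT and at 8.20, 8.36 and 8.64 in p80HT. It was 1 of 27 measured acyl-CoA synthetases and thioesterases, with a log2 difference of 0.66 (limma adjusted p = 0.213), and it no longer passed when WT replicate 2 (0.66), WT replicate 3 (0.66) or p80HT replicate 3 (0.55) was left out. Abcd2, which carries very long-chain acyl-CoA into peroxisomes, was at 7.16, 6.96 and 7.26 in WT and at 7.83, 7.65 and 8.42 in p80HT. It was 1 of 35 measured genes of fatty acid oxidation, with a log2 difference of 0.84 (limma adjusted p = 0.287), and it no longer passed when any WT array (0.76 to 0.91) or p80HT replicate 1 (0.91) was left out. Without p80HT replicate 3 the difference was 0.62. In both genes the groups do not overlap and p80HT replicate 3 is the highest array. The medians of these 2 lists were 0.02 and 0.06.

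In the other 3 lists no gene passed. Of 23 uptake genes, with a median of 0.12, Got2, a mitochondrial aminotransferase also described as a fatty acid binding protein of the plasma membrane, was at 0.55 and Lrp1, a lipoprotein receptor, at 0.97 (limma adjusted p = 0.330 and 0.399). Of 29 genes of synthesis, elongation and desaturation, with a median of 0.19, the dehydratases of elongation Hacd3 and Hacd1 were at 0.64 and 0.36 (limma adjusted p = 0.352 and 0.482). Of 17 scavenger receptors, with a median of 0.30, Cd68, which macrophages express, was at 0.79 and Scarf1 at 0.30 (limma adjusted p = 0.507 and 0.570). Without p80HT replicate 3 the log2 differences were 0.41 for Got2, 0.57 for Lrp1, 0.45 for Hacd3, 0.23 for Hacd1, 0.35 for Cd68 and 0.21 for Scarf1. Fabp4, a carrier of fat cells, macrophages and endothelium, and Pparg, the nuclear receptor that drives both Cd36 and Fabp4 in other cells, were singled out after their values were seen. Fabp4 was at 6.25 to 6.37 in WT and at 6.87, 7.16 and 9.02 in p80HT, and Pparg at 7.83 to 8.09 in WT and at 8.24, 8.67 and 9.99 in p80HT. Neither passed (limma adjusted p = 0.440 and 0.469), and p80HT replicate 3 was the highest array for both. Without p80HT replicate 3 Fabp4 passed (log2 difference 0.70) while Pparg was at 0.50. Their relation to the Cd36 level was not tested.

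**Figure D4:**
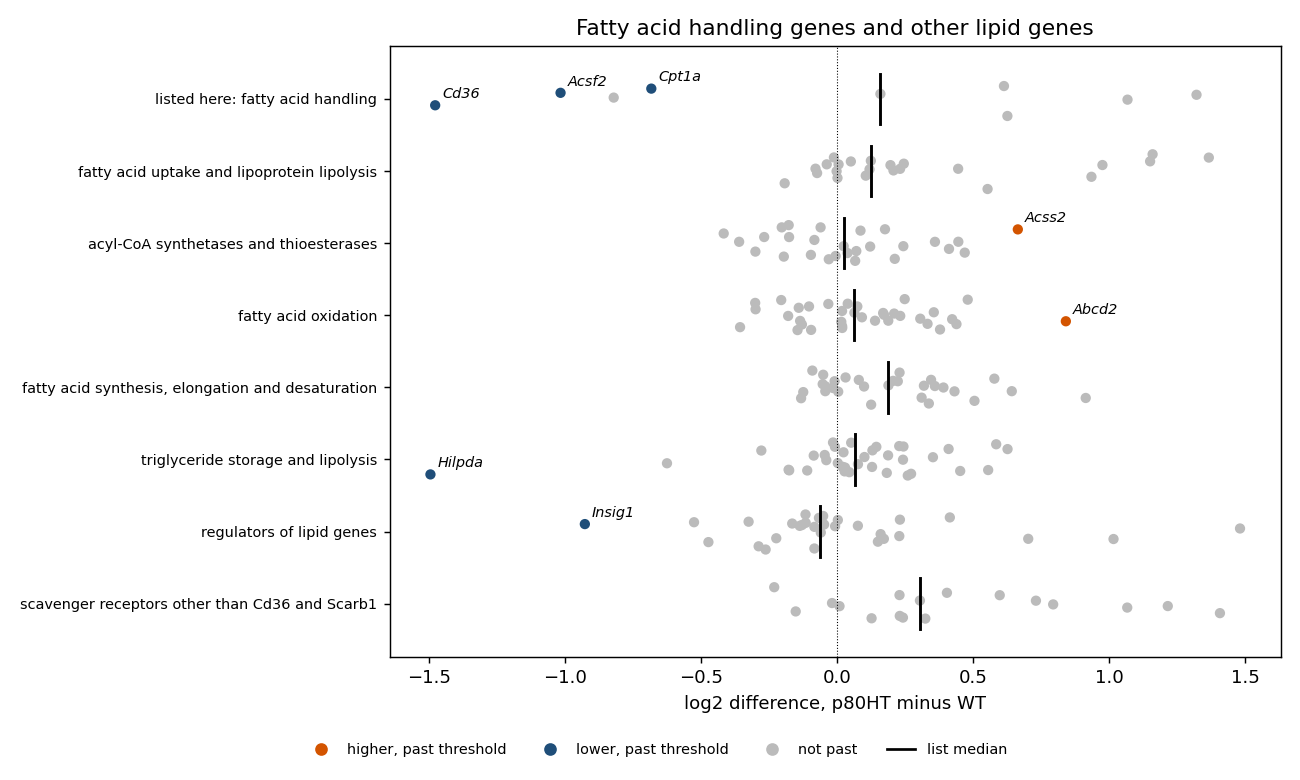
Log2 difference of p80HT minus WT (horizontal axis) for each fatty acid handling gene (top row) and each gene of 7 other lists, 1 point per gene, coloured by whether it passed the threshold, with list medians as black bars. Of the 197 other genes, Hilpda and Insig1 were lower and Acss2 and Abcd2 higher past the threshold.

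The genes whose pattern over the 6 arrays was nearest to that of Cd36 were found by the root mean square difference of log2 values, after each gene was centred on its own mean. They were Slc6a16 (0.21), Rftn2 (0.22), Satb1 (0.23), H2aw (0.23) and Hilpda (0.23), with log2 differences between p80HT and WT of -1.27, -1.22, -1.24, -1.26 and -1.50. Those nearest to Acsf2 were Gfi1 (0.05), Pik3ip1 (0.06), Oser1 (0.07), Stap1 (0.08) and Pecam1 (0.09), with log2 differences from -0.99 to -0.92. Acsf2 had more close neighbours than Cd36: Acsf2 itself stands 19th from Cd36 (0.28), while Cd36 stands 370th from Acsf2 at the same distance. All of these genes share the difference between the groups, which sets most of the likeness over so few arrays.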

How the data were processed

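Splenic B220-selected cells of 3 p80HT mice and 3 WT littermates were read on 1 array each, without pooling. The deposited values are log2 probeset signals that the authors made with RMA in Partek (per the labels); version, annotation release and settings are not given in the sources used here. They run from 3.07 to 14.8, with array medians of 7.68 to 7.81. Precision is limited by the number of mice, since an array has no read count.

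Of 28853 probesets, 21789 carry 1 gene symbol in the platform table, 1621 several and 5443 none. Each of 19938 genes was read at its single-symbol probeset with the highest mean over the 6 arrays. Differences (log2, p80HT minus WT) are from limma 3.58.1 in R 4.3.3 (lmFit, eBayes, no block, 2-sided), adjusted over all genes, and the steps were tested on simulated data. Symbols of the lipid lists cover older and newer names. Named were all listed genes, in each lipid list the genes past the threshold (at most 4) or else the 2 with the smallest p, and the 5 nearest genes by pattern to Cd36 and Acsf2, with others noted as chosen after their values were seen. Genes, lists and motifs were chosen with earlier results of these data known. Alternatives were leaving out each array, a block for the replicate number, ordinary analysis of variance as in the methods, quantile normalization, median centring, a filter at the 25th percentile and the mean of a gene's probesets. Promoter sequences are from RefSeq (GRCm38.p6) and were available for 5 of the 10 listed genes, of which only those of Cd36 and Acsf2 are shown. Python 3.11.15 with pandas 2.3.3 and matplotlib 3.10.9 made tables and plots.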

Additional observations from a re-analysis of the deposited data

How the results depend on the processing

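Leaving out 1 array in turn, the number of genes called higher ran from 137 to 401, lower from 69 to 290, and at an adjusted p under 0.05 in limma from 0 to 931. The highest values came without p80HT replicate 3. Without any other array none passed, while 859 to 2266 genes had an unadjusted p under 0.05. Of the 197 other lipid genes 0 to 5 were then called higher and 2 to 3 lower, and of the 9 fatty acid handling genes 2 to 3 were past the threshold. With the methods' analysis of variance, in which each gene's spread comes from its own values, 119 genes were higher and 77 lower, 0 passed the adjusted p (1914 had an unadjusted p under 0.05), and 1 lipid gene was higher. After quantile normalization 18 genes passed the adjusted p and 4 lipid genes were higher. With median centring, which moves the median difference of all genes from -0.02 to -0.12, 342 genes were lower, 1 lipid gene was higher and 4 were lower. Cpt1a was not past it in the analysis of variance, and Scd1 was past it without p80HT replicate 1 (-1.01), with median centring (-0.91) and with the replicate block (-0.82). The cause of these shifts was not tested.

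With the replicate number as a block, 6 genes passed the adjusted p and 4 lipid genes were higher, with 363 genes higher and 204 lower. The labels do not say whether the numbers pair the mice. Deviations from the group means correlated at 0.07, -0.24 and 0.07 for replicates 1, 2 and 3, and WT replicate 1 correlated best with p80HT replicate 2 (0.29). With 3 mice per group, and p80HT replicate 3 standing apart, these values cannot settle it.

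Genes whose p80HT values hang on replicate 3, Fabp5 and Lpl above all, have too few mice to place their group difference.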
